A study of Sus scrofa with 63 samples.

Results

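The genes described here are 10 regulators of cell growth, MTOR, RPTOR, RICTOR, RPS6KB1, EIF4EBP1, TSC1, TSC2, AKT1, MAP2K1 and MAP2K2. Every array probe whose gene name in the scanner files equals 1 of these symbols, in any letter case, was taken, which gave 20 of 60305 probes. Among the 10 genes, 8 had at least 1 such probe, of 39175 gene names on the array, and RICTOR and MAP2K2 had none under this rule. The probes numbered 6 for MAP2K1, 4 for RPS6KB1, 3 for TSC1, 2 each for MTOR and EIF4EBP1, and 1 each for RPTOR, TSC2 and AKT1. Testing was limited to probes that the scanner software marked well above background in 75% or more of the fetuses of any group, which held for 18 of the 20 probes, from 7 genes.

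Jejunum RNA of 63 male pig fetuses was hybridised to one-colour oligonucleotide arrays, and the study compared late gestation and breed as sources of differences in intestinal maturity. At day 90 of gestation there were 9 purebred Large White fetuses (LW), 6 purebred Meishan fetuses (MS), 9 crossbred fetuses with an LW sire and an MS sow (LWMS) and 8 with an MS sire and an LW sow (MSLW). At day 110 there were 9 LW, 7 MS, 9 LWMS and 6 MSLW fetuses. No fetus received a treatment, and a piece from the middle of the jejunum was taken whole, so each value is a mix of epithelium, muscle and other layers. In such bulk RNA, a change in the number of cells of a type and a change in RNA per cell cannot be told apart. The labels used here do not give the sow of each fetus, so litter mates count as separate fetuses and the p-values treat all fetuses as independent. Between 51.2% and 87.6% of probes were well above background per array, the highest in an LWMS fetus of day 90. No 2 arrays looked like 1 sample deposited again, with correlations between arrays from 0.8623 to 0.9914 over 37740 probes.

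mTOR is a kinase that joins signals of growth factors, amino acids and energy. With its scaffold raptor (RPTOR) it forms mTORC1, which drives protein synthesis through S6K1 (RPS6KB1) and 4E-BP1 (EIF4EBP1), and with RICTOR it forms mTORC2, which activates AKT1. The TSC1 and TSC2 proteins hold mTORC1 back and are themselves restrained by AKT1, while MEK1 (MAP2K1) and MEK2 (MAP2K2) pass growth factor signals from RAF to ERK, and both routes serve the growth and renewal of the intestinal epithelium.

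The probes on which the results turn are 60 bases long and are given here as the array files list them, 5′ to 3′. The first pair, both named MAP2K1, was chosen for display because the probes differ by a few bases and read the breeds differently, and the first 30 bases of each are shown. Capitals mark the places in this stretch where the 2 sequences differ.
MAP2K1 A_72_P353883: ccccaaatTgaagtactgatgCtattgtaa
MAP2K1 A_72_P610024: ccccaaatCgaagtactgatgtattgtaaa
Counted from 1 at the 5′ end of the probe, A_72_P610024 carries the substitution T9C against A_72_P353883, lacks base 22 of it, and has 1 extra base at its own position 42. The next MAP2K1 probe is given whole because it was the only probe of the 10 genes called for a difference between MS and LW in the change with age. That call was lost with another background correction, as given below. This probe has no capitals and shared no run of 15 bases with any other probe of the array on either strand.
MAP2K1 O10188: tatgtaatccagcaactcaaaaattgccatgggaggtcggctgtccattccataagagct
The last 30 bases follow for both MTOR probes and for the RPS6KB1 probe with the largest difference with age, with the letters AATAAA of a polyadenylation signal in capitals.
MTOR O12119: aagaaatattaaactaaatgcacaaagtat
MTOR A_72_P063361: actttttgtgccAATAAAtgacatcaaact
RPS6KB1 A_72_P442308: ttggacagaggaaaAATAAAcatggatttt
AATAAA stood on the listed strand of 2 of the 20 probes and of 10.3% of all 60305 probes, and on the opposite strand of 0 of the 20 and of 4.32% of all. The EIF4EBP1 probes O10675 and A_72_P502017 had identical sequences. Which strand and which part of a transcript each probe reads was not checked here. As listed, O10188 and the EIF4EBP1 probes look like reverse complements of coding sequence. Whether they read the mRNA of the named gene was not tested.

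Levels are log2 signals after background correction, counted from the array's own 75th percentile, so that 0 stands for that percentile. All differences are on this log2 scale, and between groups a level is compared only with levels of the same probe. Probes of a gene are compared with each other by their difference within each fetus or by correlation over fetuses. Differences were fitted with limma over the means of the 8 groups, the Benjamini-Hochberg adjustment ran over all 40515 probes tested, and a change with age or a difference between MS and LW was called where the adjusted p was no more than 0.01 and the size 0.5 or more.

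Several probes of MAP2K1 and RPS6KB1 were higher at day 110 than at day 90 by up to 0.50, whereas those of MTOR differed by at most 0.16. The F test over the 8 groups called 6 of the 18 probes, 5 of MAP2K1 and 1 of RPS6KB1, against 28.7% of all probes tested. By the lowest BIC, 4 of these 6 followed gestational age alone, MAP2K1 A_72_P610024 followed age and genotype additively, and MAP2K1 O10188 followed the complete model with their interaction. Averaged over the 4 genotypes, 15 of the 18 probes were higher at day 110, with a median difference of 0.15 beside -0.0225 over all probes. In this comparison limma called 0 of the 18 where 13.8% of all probes were called. An unadjusted p under 0.05 was found for 13 of the 18 and for 18899 of all 40515. Without the minimum size, 8 of the 18 had an adjusted p of at most 0.01, as had 28.5% of all probes.

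**Figure D1:**
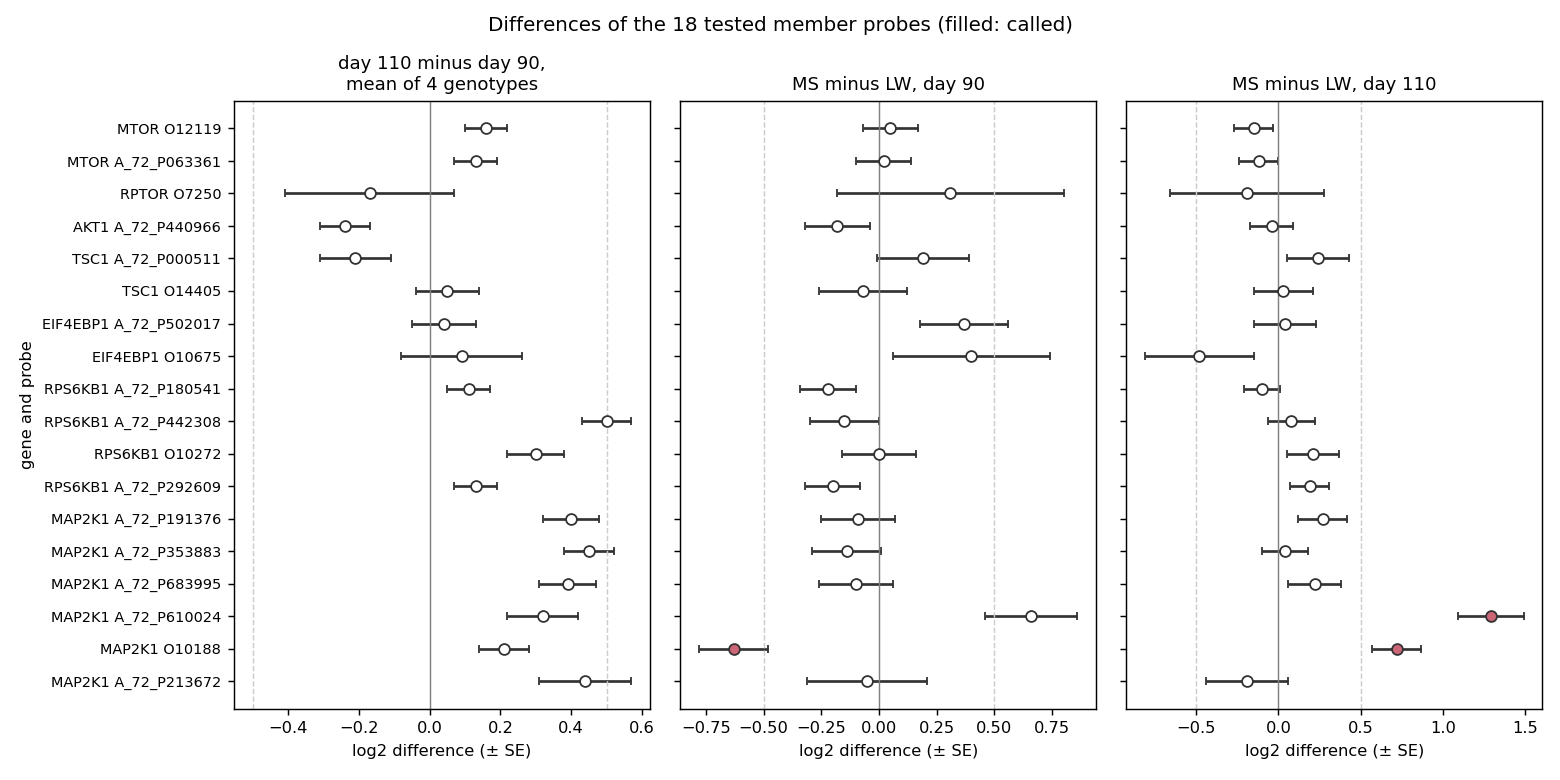
Fitted log2 differences ± SE of the 18 tested probes (rows) between day 110 and day 90 averaged over the 4 genotypes, and between MS and LW at each day; dashed lines mark a difference of 0.5 and filled points were called. The MAP2K1 and RPS6KB1 probes lie to the right of 0 in the age panel without a call, and the called differences between the breeds are A_72_P610024 and O10188 of MAP2K1.

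Within LW an unadjusted p under 0.05 was found in limma for 7 of the 18 probes and for 9663 of all 40515. Within single genotypes the calls were 0 of 18 in LW, where 4.76% of all probes were called, 2 in MS, 4 in LWMS and 1 in MSLW. All of these calls were higher at day 110, in which direction 1.62% of all probes were called in MS, 4.18% in LWMS and 2.45% in MSLW. Between purebreds, 1 of 18 was called lower in MS at day 90 (2.21% of all probes) and 2 were called higher in MS at day 110 (1.84%), all of MAP2K1.

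Both MTOR probes read close to the same level in every group. O12119 ranged from 1.0 to 2.01 in LW, 1.52 to 1.99 in MS, 1.48 to 1.87 in LWMS and 1.63 to 2.19 in MSLW at day 90, with medians of 1.87, 1.90, 1.78 and 1.87. At day 110 it ranged from 1.75 to 2.20 in LW, 1.52 to 2.14 in MS, 1.84 to 2.31 in LWMS and 1.45 to 2.24 in MSLW, with medians of 2.01, 1.96, 2.06 and 2.10. The ranges of all 8 groups overlapped. Over the 4 genotypes O12119 was 0.16 higher at day 110 (SE 0.06, adjusted p = 0.0241) and A_72_P063361 0.13 higher (SE 0.06, adjusted p = 0.0701), neither of them called. Between MS and LW at day 110, O12119 differed by -0.15 (adjusted p = 0.46) and A_72_P063361 by -0.12 (adjusted p = 0.603). The 2 probes read the fetuses alike, with r = 0.93 and rho = 0.89 over 63 fetuses and r = 0.92 once group means were removed (permutation test of each, adjusted p = 2.75e-05, 2.75e-05 and 3.67e-05).

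By likeness alone, the genes whose probe followed O12119 most closely over the 63 fetuses were NCOA6 (r = 0.862), FOXN3 (0.83), EP400 (0.819) and EGFR (0.816), the receptor of epidermal growth factor. These are descriptions over fetuses that share arrays and a scaling.

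The study assigns MTOR to a different pair of probes, O2120 and A_72_P294744, which it chose on these fetuses and which the array files name ANGPTL7, an angiopoietin-like secreted protein. Both have the same sequence, and in the assembly Sscrofa11.1 the ANGPTL7 gene lies within the span of MTOR on chromosome 6. On the strand opposite to the listed one this sequence carries AATAAA, as do 4.32% of all probes. Which of these genes the probes read was not tested. The first 30 bases of O2120, shown because the name of this probe decides what is said of MTOR, are as follows.
ANGPTL7 O2120: gtcacagccaataacagatatatctatttt
Its lowest, median and highest levels were -4.91, -4.36 and -3.80 in LW and -4.96, -4.36 and -3.32 in MS at day 90. At day 110 they were -5.63, -4.20 and -3.72 in LW and -3.69, -3.47 and -2.18 in MS, so that all 7 MS fetuses lay above all 9 LW fetuses. O2120 was 1.22 higher in MS than in LW at day 110 (SE 0.24, adjusted p = 0.00029), and its copy A_72_P294744 was 1.20 higher (SE 0.31, adjusted p = 0.00554). O2120 also rose with age in MS, by 1.13 (adjusted p = 0.00389), with -0.01 in LW (adjusted p = 0.994), but the difference between the breeds in that change was not called (1.13, SE 0.35, adjusted p = 0.303). With another background correction (normexp, offset 50) the rise of O2120 in MS was 0.55 (adjusted p = 0.0334) and the difference of A_72_P294744 at day 110 was 0.42 (adjusted p = 0.15), neither of them called. The latter call was also lost with the slide as a block (1.09, adjusted p = 0.0192) and with array weights (0.68, adjusted p = 0.0531). The 2 copies correlated at r = 0.78 over 62 fetuses and their difference had an SD of 0.47.

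**Figure D2:**
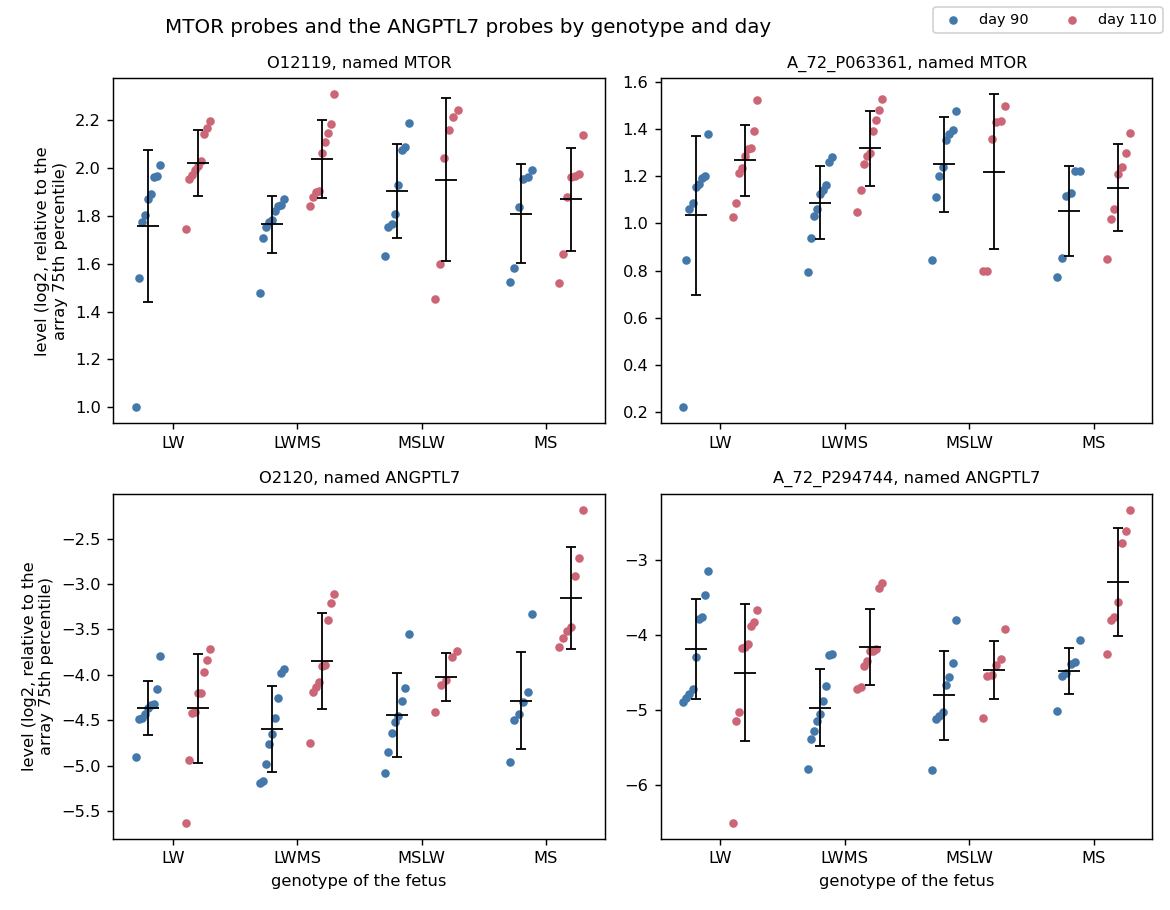
Levels (log2 units above the array's 75th percentile) by genotype and day for the 2 probes named MTOR (upper panels) and the 2 identical probes named ANGPTL7 that the study assigns to MTOR (lower panels); points are fetuses, bars the mean ± SD. MS fetuses of day 110 stand highest in both lower panels and lie among the other groups in both upper panels.

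Another ANGPTL7 probe of different sequence, A_72_P440611, differed between MS and LW at day 110 by 0.80 (SE 0.45, adjusted p = 0.287). Probes that carry an MTOR transcript or description under another gene name were looked at after the values were seen. A_72_P203577 and A_72_P180691 changed by 0.00 (adjusted p = 0.988) and -0.01 (adjusted p = 0.972) over the 4 genotypes, and A_72_P221277 by 0.26 (adjusted p = 0.176). No call was made in these 3 probes for age over the 4 genotypes or for MS against LW at day 110, where they differed by -0.23, 0.08 and -0.21. A_72_P309943 was well above background on 4 of 63 arrays and was not tested.

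RPTOR, the scaffold that brings mTORC1 its substrates, was read by O7250 alone, which was well above background on 31 of 63 arrays. Its group medians lay between -5.29 and -4.82 and it differed with age by -0.17 (SE 0.24, adjusted p = 0.614). RICTOR, the defining subunit of mTORC2, is described in the annotation of A_72_P101611, a probe outside the rule that was chosen after its values were seen, and it differed with age by 0.26 (adjusted p = 0.114).

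TSC1 and TSC2, whose proteins hold mTORC1 back, gave no call. TSC1, the hamartin subunit that stabilises its partner, was read by A_72_P000511 and O14405, which were well above background on all 63 arrays and differed with age by -0.21 (SE 0.10, adjusted p = 0.0851) and 0.05 (SE 0.09, adjusted p = 0.688). The medians of A_72_P000511 were 0.38, 0.49, 0.29 and 0.56 at day 90 and 0.12, 0.26, 0.10 and 0.25 at day 110 in LW, MS, LWMS and MSLW. These 2 probes ran against each other over the fetuses, with r = -0.50 and rho = -0.51 over 63 fetuses, r = -0.58 within groups and r = -0.48 without the 2 fetuses farthest from the median (permutation test of the first 3, adjusted p = 9.17e-05, 0.00011 and 3.67e-05). They were therefore not averaged. The remaining TSC1 probe, A_72_P706853, was well above background on 13 of 63 arrays and was not tested. A_72_P316558, described as TSC1 under another gene name and chosen after its values were seen, was 0.37 lower at day 110 on the log2 scale (log2 difference -0.37, SE 0.11, adjusted p = 0.00614), under the size needed for a call. TSC2, the GAP subunit that switches off Rheb, had 1 probe, O11272, which was well above background on 0 of 63 arrays and so gives no comparison.

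AKT1, the kinase that relays insulin and growth factor signals to mTORC1, was among the 3 tested probes that were lower at day 110. At day 90 the median of A_72_P440966 was -0.11 in LW, -0.39 in MS, -0.19 in LWMS and -0.51 in MSLW, within ranges of -0.86 to 0.22, -0.67 to 0.06, -0.60 to 0.08 and -0.67 to 0.00. At day 110 the medians were -0.46, -0.51, -0.62 and -0.57, within ranges of -0.68 to -0.25, -0.93 to 0.08, -1.13 to -0.40 and -1.06 to -0.35. The groups overlapped between the ages in every genotype. The fitted difference was -0.24 (SE 0.07, adjusted p = 0.00284), below the size needed for a call, and the mean was lower at day 110 on 7 of the 8 slides.

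RPS6KB1, which encodes the S6 kinase that phosphorylates ribosomal protein S6, gave different answers by probe. A_72_P442308 ranged at day 90 from 0.12 to 0.99 in LW, 0.00 to 0.73 in MS, 0.00 to 0.80 in LWMS and 0.16 to 0.98 in MSLW, with medians of 0.34, 0.14, 0.43 and 0.44. At day 110 it ranged from 0.56 to 1.26 in LW, 0.45 to 1.47 in MS, 0.51 to 1.25 in LWMS and 0.46 to 1.21 in MSLW, with medians of 0.80, 0.91, 0.90 and 0.86. Every genotype's median was higher at day 110, with overlap of the ages in all 4. The difference over the genotypes was 0.50 (SE 0.07, adjusted p = 8.09e-08), which before rounding was just under 0.5 and so not a call, and it was seen on 8 of 8 slides. It was called in MS, at 0.70 (adjusted p = 0.00198), and in LWMS, at 0.51 (adjusted p = 0.0035), and was 0.47 in LW (adjusted p = 0.0129) and 0.31 in MSLW (adjusted p = 0.191). The LWMS call lay so near the minimum size that 5 of 10 alternatives ended it, among them leaving out the LWMS array with the highest share of probes above background (0.49, adjusted p = 0.00836).

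The brightest RPS6KB1 probe, A_72_P180541, had medians of 0.83, 0.75, 0.79 and 0.95 at day 90 and 0.96, 0.86, 0.83 and 0.87 at day 110 in LW, MS, LWMS and MSLW. Its difference with age was 0.11 (SE 0.06, adjusted p = 0.128). Within fetuses, A_72_P442308 gained 0.39 on A_72_P180541 from day 90 to day 110, by a two-sided permutation test with 100000 resamples of age within genotype (p = 1e-05, the smallest these can give, adjusted p = 0.00011). It was the only 1 of 11 probe pairs of the 10 genes in which the change with age differed. O10272 was higher by 0.30 (adjusted p = 0.00204) and A_72_P292609 differed by 0.13 (adjusted p = 0.0732). Agreement with A_72_P180541 over 63 fetuses was modest for A_72_P442308 (r = 0.41, rho = 0.37; permutation test, adjusted p = 0.000927 and 0.00329) and for A_72_P292609 (r = 0.31, rho = 0.18; adjusted p = 0.0153 and 0.188), and O10272 gave r = 0.14 and rho = 0.15 (adjusted p = 0.307 and 0.268).

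The study gives the name RPS6KB1 to A_72_P514974, which the array files name GLRX, a glutaredoxin that reduces protein disulfides, and which it chose on these fetuses. GLRX lies on chromosome 2 and RPS6KB1 on chromosome 12 of Sscrofa11.1. That probe had medians of 1.12, 1.39, 1.36 and 0.85 at day 90 and 2.28, 2.70, 2.83 and 2.75 at day 110 in LW, MS, LWMS and MSLW, and the ages did not overlap in LWMS and MSLW. It rose by 1.40 over the genotypes (SE 0.15, adjusted p = 1.52e-11), on 8 of 8 slides. This is a larger difference than that of any probe named RPS6KB1, although whether the 2 differ was not tested.

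**Figure D3:**
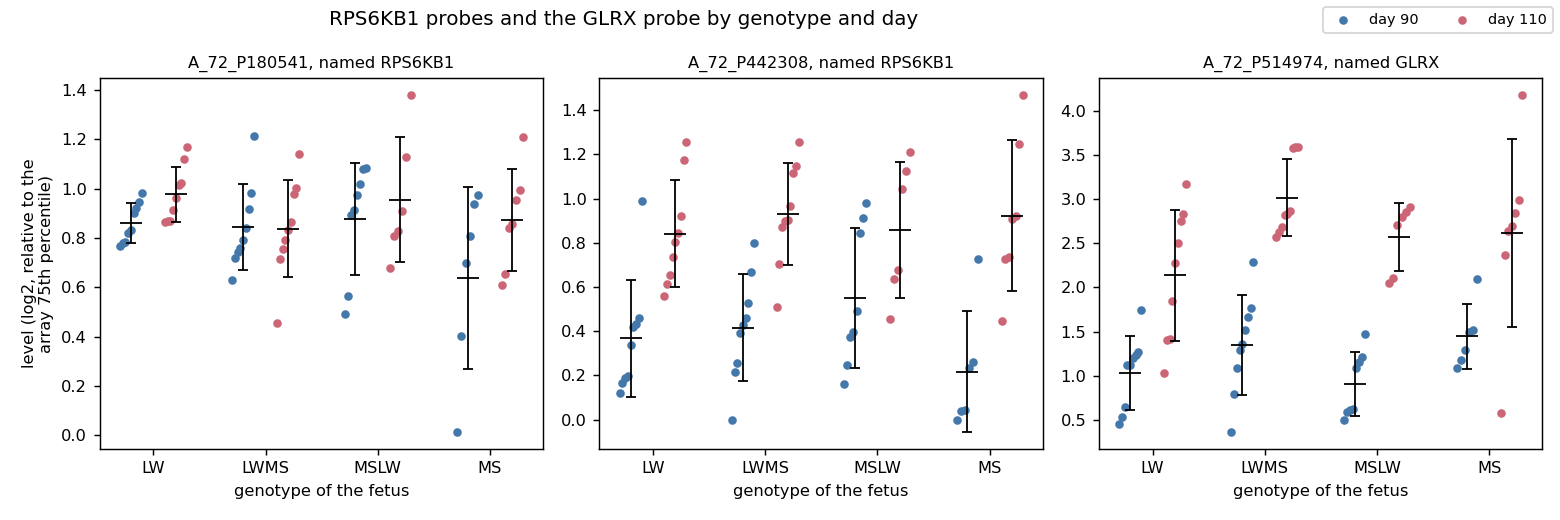
Levels (log2 units above the array's 75th percentile) by genotype and day for the RPS6KB1 probes A_72_P180541 and A_72_P442308 and for A_72_P514974, named GLRX in the array files and RPS6KB1 by the study; points are fetuses, bars the mean ± SD. The means of day 110 stand above those of day 90 in every genotype in the middle and right panels, and the ages lie closer together in the left panel.

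EIF4EBP1 encodes the translation repressor that mTORC1 releases from the cap-binding protein. Its probes, whose strand was not checked, differed with age by 0.04 (A_72_P502017, SE 0.09, adjusted p = 0.797) and 0.09 (O10675, SE 0.17, adjusted p = 0.708). These identical probes correlated at r = 0.34 and rho = 0.49 over 63 fetuses (permutation test, adjusted p = 0.0132 and 0.00011), and their difference had an SD of 0.64. The group medians of A_72_P502017, the brighter of the pair, lay between -4.09 and -3.64. In O10675, 1 LW fetus of day 110 read -0.56 where the median of its group was -4.01.

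MAP2K1 encodes the MEK1 kinase above ERK. For age averaged over the 4 genotypes, 5 of its 6 probes had an adjusted p of 0.01 or less, all higher at day 110. The brightest, A_72_P191376, had medians of 0.75 in LW, 0.57 in MS, 0.77 in LWMS and 0.40 in MSLW at day 90, within ranges of 0.14 to 0.97, 0.29 to 1.17, 0.38 to 0.91 and 0.08 to 0.58. At day 110 the medians were 0.74, 1.14, 1.23 and 0.99, within ranges of 0.42 to 1.39, 0.41 to 1.58, 0.63 to 1.51 and 0.40 to 1.21. The median was higher at day 110 in MS, LWMS and MSLW and not in LW, and the ages overlapped in all 4 genotypes. Over the genotypes the difference was 0.40 (SE 0.08, adjusted p = 1.91e-05), and in LW alone 0.12 (SE 0.14, adjusted p = 0.687).

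At day 90 the medians of A_72_P353883 were 0.08 in LW, -0.04 in MS, 0.19 in LWMS and -0.13 in MSLW, within ranges of -0.12 to 0.42, -0.28 to 0.31, -0.33 to 0.38 and -0.30 to 0.31. At day 110 they were 0.45, 0.44, 0.66 and 0.47, within ranges of -0.08 to 0.96, 0.06 to 0.88, 0.32 to 0.98 and 0.04 to 0.99, so that every genotype's median was higher and the ages overlapped in all 4. The medians of A_72_P683995 were 0.15, -0.11, 0.07 and -0.33 at day 90, within ranges of -0.71 to 0.32, -0.48 to 0.46, -0.32 to 0.33 and -0.81 to -0.01. At day 110 they were 0.18, 0.35, 0.53 and 0.23, within ranges of -0.33 to 0.88, -0.27 to 0.79, 0.09 to 0.85 and -0.15 to 0.58, again with overlap in all 4 genotypes.

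Like A_72_P191376, the other MAP2K1 probes were higher at day 110 when averaged over the 4 genotypes, though not all in every genotype. The mean of O10188 was lower at day 110 in LW (-3.58 against -3.23) and in MSLW (-3.34 against -2.99). That of A_72_P610024 was lower in LW (-1.02 against -0.87). The difference with age was 0.45 for A_72_P353883 (adjusted p = 5.81e-07), 0.39 for A_72_P683995 (8.51e-05), 0.32 for A_72_P610024 (0.00781), 0.44 for A_72_P213672 (0.00355) and 0.21 for O10188 (0.0207). None of these 6 reached the size for a call. In the change with age averaged over the 4 genotypes, no MAP2K1 pair differed (permutation test, adjusted p from 0.427 to 0.978). Opposite changes in different genotypes, as in O10188, cancel in this average. The test therefore does not show that the probes changed alike in each genotype. Within slides, day 110 was higher on 8 of 8 slides for A_72_P191376, A_72_P353883 and A_72_P213672 and on 7 of 8 for the other 3 probes. In single genotypes, calls were made for A_72_P353883 in LWMS (0.53, adjusted p = 0.00201), for A_72_P610024 in LWMS (0.64, adjusted p = 0.00869) and for A_72_P213672 in MSLW (1.0, adjusted p = 0.0074). The last 2 were lost under 4 of 10 and 7 of 9 alternatives, and A_72_P213672 was well above background on 46 of 63 arrays.

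Some markers of enterocytes were called in the same comparison and others were not. Of 8 enterocyte and epithelial genes measured, 3 rose and 1 fell with age, where 6.07% of all probes were called higher and 7.71% lower. FABP1, which binds fatty acids, rose by 2.55 (adjusted p = 1.77e-19) and LCT, the milk sugar enzyme lactase, by 1.37 (adjusted p = 1.32e-05). ANPEP, the brush border aminopeptidase N, fell by 0.59 (adjusted p = 0.00208). EPCAM and CDH1, each 0.44 higher, were under the size for a call. APOA4 (0.36, adjusted p = 0.418) and FABP2 (0.13, adjusted p = 0.799) were not called either. The summed level of the 8, in multiples of the 75th percentile, ranged in LW from 225 to 355 at day 90 and from 179 to 898 at day 110, in MS from 282 to 477 and from 86.4 to 919, in LWMS from 260 to 439 and from 371 to 1005, and in MSLW from 197 to 357 and from 369 to 1126. Their part in the MAP2K1 and RPS6KB1 differences was not tested. The other marker lists gave, higher and lower of those tested, 0 and 1 of 7 for smooth muscle, 0 and 2 of 6 for fibroblasts, 0 and 2 of 8 for proliferation, 0 and 0 of 5 for endothelium, 0 and 1 of 5 for enteric neurons and glia, 1 and 0 of 6 for leukocytes, 0 and 2 of 2 for erythroid cells and 0 and 0 of 3 for liver or pancreas. The markers of epithelium and smooth muscle that define a piece of gut wall were each well above background on 62 or 63 of 63 arrays.

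As a measure of how alike the MAP2K1 probes read the fetuses, A_72_P683995 followed A_72_P191376 closely (r = 0.96, rho = 0.95, within groups r = 0.92, over 62 fetuses). A_72_P353883 (r = 0.66, rho = 0.63), A_72_P213672 (r = 0.56, rho = 0.66) and A_72_P610024 (r = 0.51, rho = 0.47) followed it less, over 63 fetuses, with adjusted permutation p from 2.75e-05 to 0.000157 for these 4 probes. O10188 did not follow it, with r = -0.06 and rho = -0.04 (adjusted p = 0.655 and 0.749), and ran against it once group means were removed (r = -0.40, permutation test, adjusted p = 0.00222). The genes most like A_72_P191376 were DLST (r = 0.894, a subunit of the 2-oxoglutarate dehydrogenase complex), SEC24C (0.879, a coat protein of vesicles that leave the endoplasmic reticulum), GLTP (0.853), CTSL1 (0.847, a lysosomal protease) and DAZAP2 (0.844), over 63 fetuses that share arrays. Those most like O10188 were ARGLU1 (0.624), PRR14L (0.624), EWSR1 (0.614), DDX17 (0.597, an RNA helicase) and ZNF346 (0.573), none of them among the genes most like A_72_P191376.

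**Figure D4:**
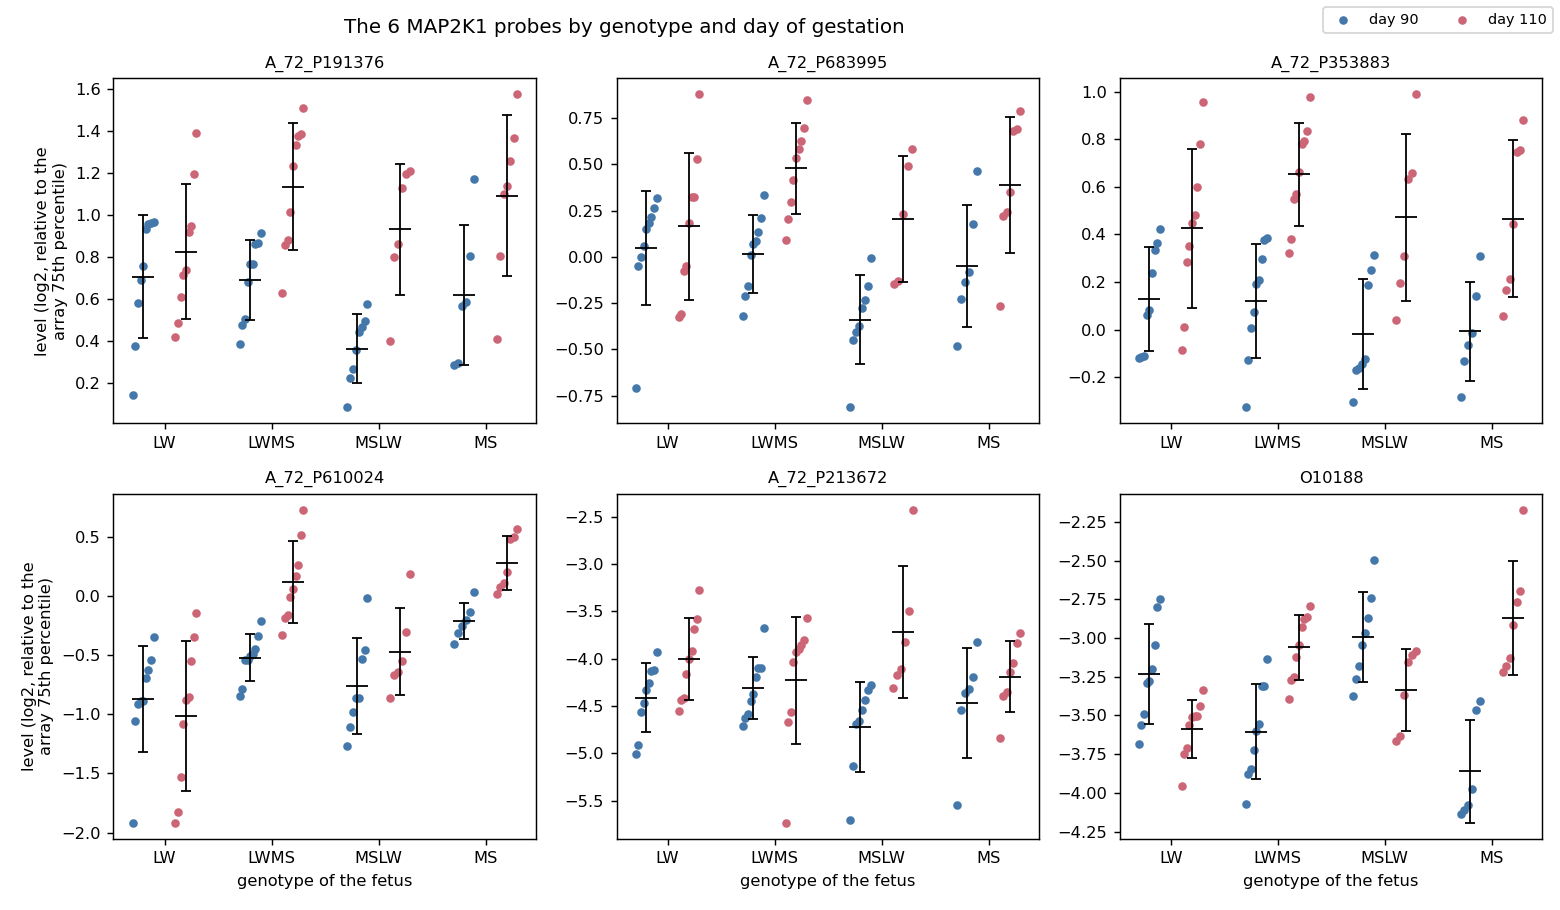
Levels (log2 units above the array's 75th percentile) of the 6 MAP2K1 probes by genotype and day; points are fetuses, bars the mean ± SD. MS lies above LW in A_72_P610024, without overlap at day 110, and O10188 falls from LW to MS at day 90 and climbs from LW to MS at day 110, an interaction called in none of the other 5 panels.

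The largest difference between the breeds in any of the 18 probes was that of A_72_P610024, whose sequence is shown above beside that of A_72_P353883. Its lowest, median and highest levels at day 110 were -1.92, -0.88 and -0.14 in LW and 0.01, 0.20 and 0.56 in MS, with no overlap. At day 90 they were -1.92, -0.89 and -0.35 in LW and -0.41, -0.23 and 0.03 in MS, with overlap at the edge. In LWMS they were -0.85, -0.51 and -0.21 at day 90 and -0.33, 0.06 and 0.73 at day 110, and in MSLW -1.27, -0.87 and -0.02 and then -0.86, -0.59 and 0.18, so that both crosses overlapped LW at both days. The difference at day 110 was 1.29 (SE 0.20, adjusted p = 2.31e-06), and MS was higher on 5 of the 5 slides that held both breeds, by 0.83 to 1.99. At day 90 it was 0.66 (SE 0.20, adjusted p = 0.0353), not a call, with MS higher on 6 of 6 slides.

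A_72_P353883, which differs from it by a handful of bases, had a difference of 0.04 at day 110 (SE 0.14, adjusted p = 0.9) and -0.14 at day 90 (SE 0.15, adjusted p = 0.706). The 2 probes were therefore compared within each fetus, A_72_P610024 minus A_72_P353883, a pair added after the values were seen. At day 110 this within-fetus difference lay between -0.38 and -0.05 in MS and between -2.37 and -0.74 in LW. MS exceeded LW by 1.25 without overlap (two-sided exact permutation test of 7 against 9 fetuses, p = 0.000262, adjusted p = 0.00315 over 12 pairs). At day 90 it lay between -0.39 and 0.03 in MS and between -1.80 and -0.62 in LW, and MS exceeded LW by 0.80, again without overlap (exact permutation test, p = 0.0002, adjusted p = 0.0024).

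In the crossbreds the median of the within-fetus difference lay between the purebred medians. This median at day 90 was -0.81 in LW, -0.75 in LWMS, -0.75 in MSLW and -0.26 in MS, and at day 110 -1.33, -0.66, -0.92 and -0.19. LWMS fetuses of day 110, from -1.0 to -0.03, overlapped both purebreds, and MSLW fetuses, from -1.33 to -0.75, overlapped LW but not MS.

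**Figure D5:**
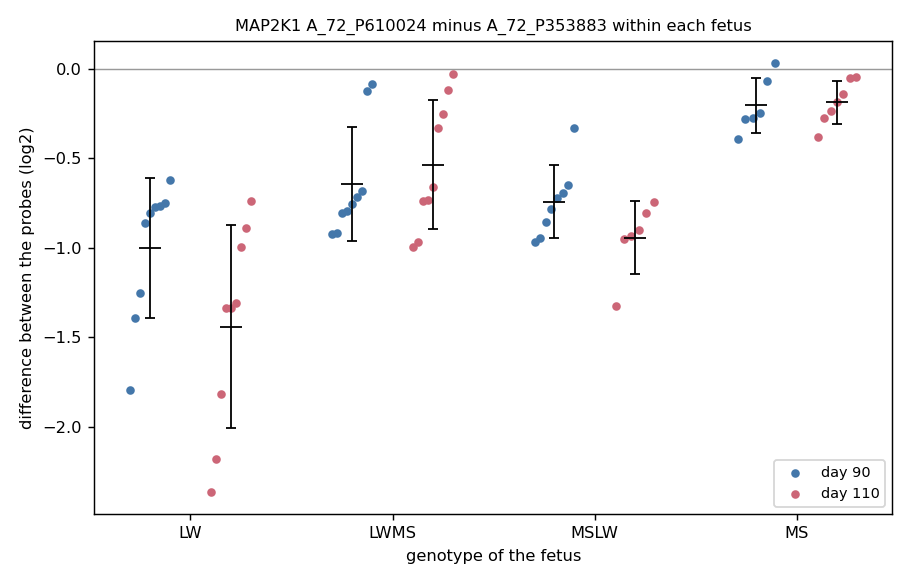
Within-fetus log2 difference between the near-identical MAP2K1 probes A_72_P610024 and A_72_P353883 by genotype and day; points are fetuses, bars the mean ± SD. At each day all MS fetuses lie above all LW fetuses, and the means of both crosses lie between the purebred means.

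Of the 12 pairs compared between purebreds, 3 differed at day 110 and 2 at day 90 by adjusted exact permutation p. Besides the pair above, A_72_P610024 minus A_72_P191376 was higher in MS than in LW, by 1.02 at day 110 (adjusted p = 0.00367) and 0.75 at day 90 (adjusted p = 0.0204). For A_72_P213672 minus A_72_P191376, MS differed from LW by -0.46 at day 110 (adjusted p = 0.0343). A_72_P610024 was also the only probe of the 18 called for the breed of the sow, with 0.70 more in fetuses of MS sows (SE 0.10, adjusted p = 3.98e-07), where 7.26% of all probes were called in this direction at an adjusted p under 0.05. For the breed of the sire its difference was 0.28 (SE 0.10, adjusted p = 0.0736), which became a call with the slide as a block (0.29, adjusted p = 0.0444), the authors' values (0.28, adjusted p = 0.0497) or array weights (0.31, adjusted p = 0.0134). Without these changes limma called 0 of the 18 for the sire, beside 6.95% of all probes. For the sire an unadjusted p under 0.05 was found for 1 of the 18 and for 7643 of all 40515.

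MAP2K1 O10188 is the probe by which the study followed MEK1, and it was chosen there on these fetuses. Whether this probe reads the MAP2K1 mRNA was not tested. Its lowest, median and highest levels at day 90 were -3.69, -3.28 and -2.75 in LW, -4.13, -4.02 and -3.41 in MS, -4.07, -3.60 and -3.14 in LWMS and -3.38, -3.01 and -2.50 in MSLW. At day 110 they were -3.95, -3.51 and -3.34 in LW, -3.22, -2.92 and -2.17 in MS, -3.40, -3.04 and -2.79 in LWMS and -3.67, -3.26 and -3.08 in MSLW. The medians of both groups from MS sows were thus lower at day 90 and higher at day 110, and MS and LW did not overlap at day 110. From day 90 to day 110 it rose in MS by 0.99 (SE 0.16, adjusted p = 2.45e-05) and in LWMS by 0.54 (SE 0.14, adjusted p = 0.00302), with -0.35 in LW (adjusted p = 0.0912) and -0.34 in MSLW (adjusted p = 0.155). Both rises were lost with normexp correction, at 0.50 in MS (adjusted p = 0.0261) and 0.22 in LWMS (adjusted p = 0.237), and that in LWMS also with quantile normalization (0.67, adjusted p = 0.0108) and with the authors' values (0.42, under the minimum size).

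O10188 was lower in MS than in LW at day 90, with a difference of -0.63 (SE 0.15, adjusted p = 0.00497), and higher at day 110, with 0.72 (SE 0.15, adjusted p = 0.000473). The breed by age term, the change in MS less that in LW, was 1.34 (SE 0.21, adjusted p = 0.000353). This call was made for 1 of the 18 probes and for 7 of 40515 in all, or 0.0173%, and in this direction for 0.00247%. The change in fetuses of MS sows less that in fetuses of LW sows was 1.11 (SE 0.15, adjusted p = 4.09e-06), again a call for 1 of the 18 and, in this direction, for 0.183% of all. Within slides, MS was higher on 5 of 5 slides at day 110, by 0.49 to 0.98, and on 1 of 6 at day 90, from -1.14 to 0.02. With normexp background correction, however, the breed by age difference was 0.47 (adjusted p = 0.548), that by sow and age 0.40 (adjusted p = 0.136), and MS minus LW 0.30 at day 110 (adjusted p = 0.171) and -0.17 at day 90 (adjusted p = 0.526). The day 90 call was lost in 7 of 9 alternatives, which besides normexp were the slide as a block (-0.60, adjusted p = 0.0129), leaving out LW fetuses 484 and 469 (-0.57, adjusted p = 0.0124), quantile normalization (-0.74, adjusted p = 0.0278), median centring (-0.65, adjusted p = 0.0161), the authors' values (-0.38, adjusted p = 0.0133) and array weights (-0.38, adjusted p = 0.0335).

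MAP2K2 had no probe under the rule. A_72_P007956, whose annotation describes it and which was chosen after its values were seen, differed with age by 0.26 (adjusted p = 0.0729) and between MS and LW at day 110 by 0.31 (adjusted p = 0.457).

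Of 75 pathway genes tested around these, 12 were called with age over the 4 genotypes, a share near that of all probes. The calls, each by the brightest tested probe of a gene, were 1 of 6 mTOR partners, 2 of 9 lysosome and Rheb inputs, 1 of 9 mTORC1 inhibitors and AMPK subunits, 1 of 12 in the PI3K and AKT pathway, 4 of 12 translation effectors, 1 of 18 in the RAS-RAF-ERK cascade and 2 of 9 ERK targets, beside the 13.8% given above, of which 6.07% were higher and 7.71% lower. The medians of the lists lay between -0.06 and 0.08. Among inputs and brakes of mTORC1, DEPTOR, a subunit that inhibits mTOR, rose by 0.62 (SE 0.15, adjusted p = 0.00093) and DDIT4, a stress-induced inhibitor, by 0.83 (SE 0.15, adjusted p = 4.76e-06). RRAGC and RRAGD, the GTPases that carry mTORC1 to the lysosome when amino acids are present, fell by 0.99 (SE 0.25, adjusted p = 0.00117) and by 1.01 (SE 0.21, adjusted p = 6.39e-05).

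IRS1, the adaptor of the insulin receptor, fell by 0.84 (SE 0.10, adjusted p = 1.9e-09). Of the translation effectors, PDCD4, an inhibitor of the helicase eIF4A, rose by 0.82 (SE 0.11, adjusted p = 3.51e-08), EIF4G1, the scaffold of the cap-binding complex, by 0.55 (SE 0.11, adjusted p = 3.87e-05) and EEF2K, the kinase that slows elongation, by 0.54 (SE 0.07, adjusted p = 5.93e-09). TFEB, a transcription factor of lysosomal genes, fell by 0.52 (SE 0.09, adjusted p = 4.93e-06). Of the ERK targets, FOS rose by 0.67 (SE 0.20, adjusted p = 0.00707) and PHLDA1 fell by 0.50 (SE 0.09, adjusted p = 8.21e-06).

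Between MS and LW at day 110, 7 of the 75 pathway genes tested were called, and those named here were chosen after their values were seen. Higher in MS were NRAS, a RAS GTPase, by 1.83 (adjusted p = 2.95e-06), MAPK3, the ERK1 kinase that MEK1 phosphorylates, by 1.01 (adjusted p = 3.11e-05), TBC1D7, a subunit of the TSC complex, by 0.74 (adjusted p = 0.00295), and MAPKAP1, an mTORC2 subunit, by 0.60 (adjusted p = 0.00906). Lower in MS were 3 genes of the PI3K and AKT pathway, among them PIK3R2, a regulatory subunit of PI3K, with -0.83 (adjusted p = 2.19e-05) and FOXO1, a transcription factor that AKT restrains, with -0.75 (adjusted p = 0.00141). Of all probes in this comparison, 1.84% were called higher and 3.15% lower in MS.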

How the data were processed

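Jejunum RNA of 63 fetuses was measured on 1 array each, on 8 slides of 7 or 8 arrays that held 5 to 8 groups each. Scanner files, deposited by the authors for every array, hold linear spot intensity corrected for background by Agilent Feature Extraction 10.10.1.1 (submitters' processing notes). A further table of the authors gives log2 values of 39446 probes, which comparison with the scanner values shows to be quantile-normalized median spot intensity.

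Each corrected intensity was put on the log2 scale, and its array's 75th percentile over non-control probes was subtracted. Of 61625 spots per array, 1319 were control spots and 0 were saturated. Outlier spots were set to missing, so a value was missing somewhere for 2775 of 40515 probes tested, and spots of a probe were averaged. Background subtraction makes changes of dim probes uncertain in size. The number of arrays limits precision.

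Group means were fitted with limma 3.58.1 (R 4.3.3), with p-values two-sided and adjusted by the Benjamini-Hochberg method. The threshold of the F test, adjusted p under 0.01, is the study's, and the minimum log2 difference of 0.5 is one it set on probes of its complete model. For single contrasts the thresholds were chosen here: adjusted p at most 0.01 and a log2 difference of 0.5 or more in size for age and for MS against LW, at most 0.01 for breed by age, and, as in the study, under 0.05 for sow and sire. Each probe of a gene was compared with the brightest tested probe of that gene by permutation (numpy 2.4.6, called at an adjusted p under 0.05). Ranks for rho came from scipy 1.17.1. The sow, a random effect in the study's model, was not a term.

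The 10 genes, the lists of pathway genes and markers and the tests were chosen with earlier results of these data known. Values by group, or the range of group medians, are given for the brightest probe of a gene and for probes called in the F test. The probes that the study pairs with a gene are given too, as are the 5 genes most like an MTOR or MAP2K1 probe. In each pathway list up to 2 genes called higher and 2 called lower with age are named by rule; EEF2K and the genes called between breeds were named after their values were seen. A few genes that these rules would name are not reported here. Steps were tested on simulated data. Alternatives were normexp correction (offset 50), quantile normalization, median centring, the authors' values, no filter, a filter requiring all 63 arrays, slide as a block, leaving out fetuses 484 and 469, and array weights. Leaving out the array with the highest share above background, dropping the minimum difference and comparing probe pairs between breeds were added after seeing the data.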

Additional observations from a re-analysis of the deposited data

Results flagged for a closer look

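Of 96 tests of single fetuses far from the rest of their group, over 12 probes, 11 singled out a fetus, 8 fetuses in all, and chance alone singles out about 1 in 20 groups. In MTOR O12119, LW fetus 484 of day 90 read 1.0 with the nearest at 1.54, and LWMS fetus 525 of day 90 read 1.48 with the nearest at 1.71. LW fetus 500 of day 90 stood apart in 3 probes, at -0.71 in MAP2K1 A_72_P683995 (nearest -0.05), at -1.92 in MAP2K1 A_72_P610024 (nearest -1.06) and at 0.99 in RPS6KB1 A_72_P442308 (nearest 0.46). In the last of these MS fetus 524 of day 90 read 0.73 (nearest 0.26). In EIF4EBP1 A_72_P502017, LW fetus 469 of day 110 read -2.72 (nearest -3.62) and MS fetus 532 of day 90 -2.89 (nearest -3.70). In RPTOR O7250, LWMS fetus 405 of day 110 read -6.68 (nearest -5.77), MSLW fetus 851 of day 110 -1.81 (nearest -4.71) and MS fetus 532 of day 90 -2.68 (nearest -4.68). For MAP2K1 O10188 the change with age differed between groups, by 1.34 between MS and LW and by 1.11 between fetuses of MS and LW sows, both by the limma term for that difference.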

How the results depend on the processing

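The count of member probes called in the F test stayed within 1.5 times its value of 6 under all alternatives, and the count for age in LW stayed at 0. The others moved as follows. For age over the 4 genotypes the count of 0 became 1 with quantile normalization, median centring or slide as a block, and 8 with no minimum difference. For age in MS the 2 became 1 with normexp correction or the filter requiring all 63 arrays and 6 with array weights. For age in LWMS the 4 became 2 with normexp correction and 1 with quantile normalization or the authors' values, and for age in MSLW the 1 became 0 with normexp correction, median centring or no filter. For MS against LW the 1 of day 90 became 0 with normexp correction, quantile normalization, median centring, the authors' values, the filter requiring all 63 arrays, slide as a block and without fetuses 484 and 469, and the 2 of day 110 became 1 with normexp correction or the filter requiring all 63 arrays. For breed by age and for sow by age the 1 became 0 in these last 2 settings. MAP2K1 O10188 was well above background on 62 of 63 arrays and so leaves the all-array filter. With normexp correction O10188 was still tested and was not called. For the sow the 1 became 2 with quantile normalization, median centring or the authors' values and 4 with array weights, and for the sire the 0 became 1 with the authors' values or slide as a block and 2 with array weights. The count of 1 probe pair that differed in its change with age was the same in the 3 alternatives run. Where no construction shows it, the cause was not tested.

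Of the values of single probes in 231 probe comparisons, 2134 kept their side of the threshold, 42 gained and 46 lost a call, and none that was called changed sign, while 137 that were called in neither setting did. MAP2K1 A_72_P610024 at day 110 lay between 1.1 and 1.42 and kept its call in all 10 alternatives. With median centring the median difference of all probes was 0.147 for MS against LW at day 110, where the main setting gave 0.0239. It was 0.139 for breed by age (main -0.0075), 0.122 for the sow (main 0.0218) and 0.145 for sow by age (main -0.0091). No paired analysis by fetus number was possible because each fetus carries a number of its own that no other group shares, so the slide was the only block that could be used. Among dim probes, the identical EIF4EBP1 pair correlated at 0.34 and the identical ANGPTL7 pair at 0.78, and the cause was not tested.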
